A study of Mus musculus with 4 samples.

Results

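The genes described here are 46 genes of the cell cycle and of DNA replication, given as a list of symbols and found among the 52636 Ensembl genes of each file. All 46 were matched by symbol. They comprise 23 genes of mitosis, 14 of S phase and 9 of G1 and the passage from G1 to S. Bulk RNA was sequenced from sorted cells; the donors were mice labelled Mertk_KO (knockout of the phagocytic receptor Mertk), fed 0.2% cuprizone, a copper chelator that kills oligodendrocytes, for 4 weeks, and the tissue was the corpus callosum. The series compares cells that bound annexin V, a marker of phosphatidylserine on the surface of dying cells (AnnexinV-positive), with cells that did not (AnnexinV-negative), with 2 libraries each. Both groups share the genotype, the diet and its length, and no wild-type or untreated library is analysed here. The labels used here leave out age, the knockout allele and how many animals went into a library, and nothing says that replicates came from separate animals. P-values therefore measure only the spread between these libraries, which may be technical.

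A dividing cell passes through G1, in which D-type cyclins with Cdk4 or Cdk6 and then E-type cyclins with Cdk2 release E2F transcription factors from the retinoblastoma family. It then copies its DNA in S phase, with the Mcm helicase, its loading factors and the enzymes that supply nucleotides, and divides in mitosis under cyclin B with Cdk1, the Aurora and Polo kinases and the spindle checkpoint. Many S phase genes are known targets of E2F at their promoters. Genes of mitosis are known for a CHR element (cell cycle genes homology region), bound by the DREAM and MuvB complexes, often near CCAAT boxes bound by NF-Y. In the demyelinating corpus callosum, microglia and oligodendrocyte precursors are among the glia known to divide.

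Promoter sequences are shown because most members of mitosis and of S phase rose on the deposited scale, while the 2 phases are known for different promoter elements. RefSeq promoter windows (GRCm38.p6, 250 bases before to 50 bases after the start, the first window listed for each gene) were matched for 37 of the 46 genes. All motifs were searched on both strands. For the CHR motif the letters were TTTGAA, and equally the variant TTCGAA. For the NF-Y site they were CCAAT. For the E2F motif they were TTTCCCG, then a form with a changed middle, TTTCGCG, and the related pair written TTTGCCG and also searched as TTTGGCG. The CHR motif was found in 15 of 19 genes of mitosis, in 2 of 12 of S phase (Mcm2 and Mcm7) and in 0 of 6 of G1, and in 19.4% of all 27025 genes with such a window. The CCAAT box was in 17 of 19, 8 of 12 and 1 of 6 genes in the same order, and in 37.9% of all genes. The E2F motif was in 4 of 19, 6 of 12 and 1 of 6, and in 6.85% of all genes. A match describes the letters of a window, not binding there. Birc5 and Nusap1 of mitosis held neither a CHR match nor a CCAAT box, and Ccnb1 and Cenpe no CHR match. Tyms and Tk1 of S phase held no match to any of these motifs. Nusap1 and Tk1 had the largest log2 fold changes of their phases, 1.64 and 1.59. Whether a motif goes with the size of a change was not tested. The last 160 bases before the start follow for 4 genes of mitosis and 2 of S phase that hold matches, with every motif match in capitals.
Cdc20: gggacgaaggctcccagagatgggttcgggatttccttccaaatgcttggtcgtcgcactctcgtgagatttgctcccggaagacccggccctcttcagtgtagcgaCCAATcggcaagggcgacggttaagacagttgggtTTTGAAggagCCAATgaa
Kif11: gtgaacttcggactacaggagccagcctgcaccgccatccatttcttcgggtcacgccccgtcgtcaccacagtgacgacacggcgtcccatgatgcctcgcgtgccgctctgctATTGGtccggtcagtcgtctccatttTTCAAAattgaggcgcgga
Ube2c: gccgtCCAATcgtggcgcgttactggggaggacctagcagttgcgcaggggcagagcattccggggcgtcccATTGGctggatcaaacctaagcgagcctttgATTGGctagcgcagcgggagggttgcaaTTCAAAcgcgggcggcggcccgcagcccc
Top2a: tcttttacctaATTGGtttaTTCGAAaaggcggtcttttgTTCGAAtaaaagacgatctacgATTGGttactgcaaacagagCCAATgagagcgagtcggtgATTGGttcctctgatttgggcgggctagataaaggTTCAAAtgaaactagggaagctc
Mcm5: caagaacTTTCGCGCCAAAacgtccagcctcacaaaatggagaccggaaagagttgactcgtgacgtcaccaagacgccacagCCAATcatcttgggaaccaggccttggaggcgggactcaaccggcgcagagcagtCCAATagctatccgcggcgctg
Mcm6: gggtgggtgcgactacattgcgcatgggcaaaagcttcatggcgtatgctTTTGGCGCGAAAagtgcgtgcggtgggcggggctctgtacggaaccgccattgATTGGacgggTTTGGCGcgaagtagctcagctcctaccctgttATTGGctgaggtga
These stretches lie at chr4:118437344-118437503, minus strand (Cdc20), chr19:37376222-37376381, plus strand (Kif11), chr2:164769769-164769928, plus strand (Ube2c), chr11:99024190-99024349, minus strand (Top2a), chr8:75109349-75109508, plus strand (Mcm5) and chr1:128359706-128359865, minus strand (Mcm6). In the 4 genes of mitosis a CHR match began 18, 19, 29 and 23 bases before the start (Cdc20, Kif11, Ube2c and Top2a), and CCAAT boxes began 53, 45, 57 and 58 bases before it, with more boxes in all but Kif11. Mcm5 and Mcm6 held no CHR match in these bases. Each had a pair of overlapping E2F matches on opposite strands, which began 153 and 148 bases before the start in Mcm5 and 110 and 105 bases before it in Mcm6, where another lay 47 bases before the start.

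The libraries held 43.2 to 67.4 M reads in genes (M, 10 to the power 6), the AnnexinV-positive libraries being the deeper, as recovered from the deposited values. The values were read as RPKM, in which reads are divided by exon length and by a factor for each library; the files name neither the unit nor the factor. For an exon length of 1 kb, 1 read corresponded to 0.00833 to 0.0116 RPKM, and each of the 46 genes had between about 205 and 13133 reads in a library. Counting error is largest for the genes with the fewest reads. Mertk RNA was found in every library (RPKM 62.6 and 53.6 after annexin V binding, 18.8 and 29.9 without). A value for the whole gene under a single genotype does not check the knockout. Markers of mature oligodendrocytes, the defining cells of this tract, were present in the AnnexinV-negative libraries (summed RPKM of 15 markers 986 and 540) and low in the AnnexinV-positive libraries (46.9 and 34.7). Microglia markers were high in all 4 libraries.

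On the deposited scale, cell cycle RNA was higher in AnnexinV-positive cells. Of the 46 genes, 45 reached an RPKM of 1 in 2 libraries and were tested, and 38 of them rose while Ccnd2 alone fell (limma, Benjamini-Hochberg adjusted p under 0.05 over 10927 genes). The background was 30.8% of genes tested higher and 9.26% lower. Their log2 fold changes had a median of 1.08, a 2.12-fold difference, beside 0.45 over all genes tested. All fold changes are AnnexinV-positive over AnnexinV-negative on the log2(RPKM + 0.1) scale. AnnexinV-positive libraries were both above the AnnexinV-negative libraries for 45 of the 46 genes, where 60.9% of the genes tested showed that order, and both below them for Ccnd2, where 14.9% did. The filter let a gene pass through a single group. Ccnd2 passed only through the AnnexinV-negative libraries, and Cenpe, Cenpf and Gins2 only through the AnnexinV-positive libraries. For these genes the filter favoured the direction found. With a minimum of 0.1 RPKM, Ccnd2, Cenpe and Gins2 were still called.

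The number of genes called higher depended on the scale. With each library centred on its median over the genes tested, 21 members were higher and 1 lower, against a background of 10.4% higher and 10.8% lower. With values scaled to a constant sum (TPM), 2 were higher (Nusap1 and Tk1) and 1 lower, against 1.03% and 19.1%. With each library centred on 14 markers of homeostatic microglia, 0 were higher and 5 lower, against 0.201% and 49.4%. The median log2 fold change of all genes tested moved from 0.45 to 0.13, -0.32 and -0.68 on these scales, and that of the members from 1.08 to 0.77, 0.36 and -0.037. The members' median lay 0.64 above that of all genes tested on the 3 scales that only shift whole libraries, where the gap is fixed by construction, and 0.68 above it as TPM. The background of the other filter and fit used was 9.66% higher and 12.8% lower with a minimum of 0.1 RPKM (36 members higher, 1 lower) and 22.4% higher and 8.76% lower with the replicate number as a block (34 members higher, 1 lower). Without AnnexinV-positive replicate 2, 23 members were higher against a background of 11.9%, and without AnnexinV-positive replicate 1, 26 were higher against 16%.

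**Figure D1:**
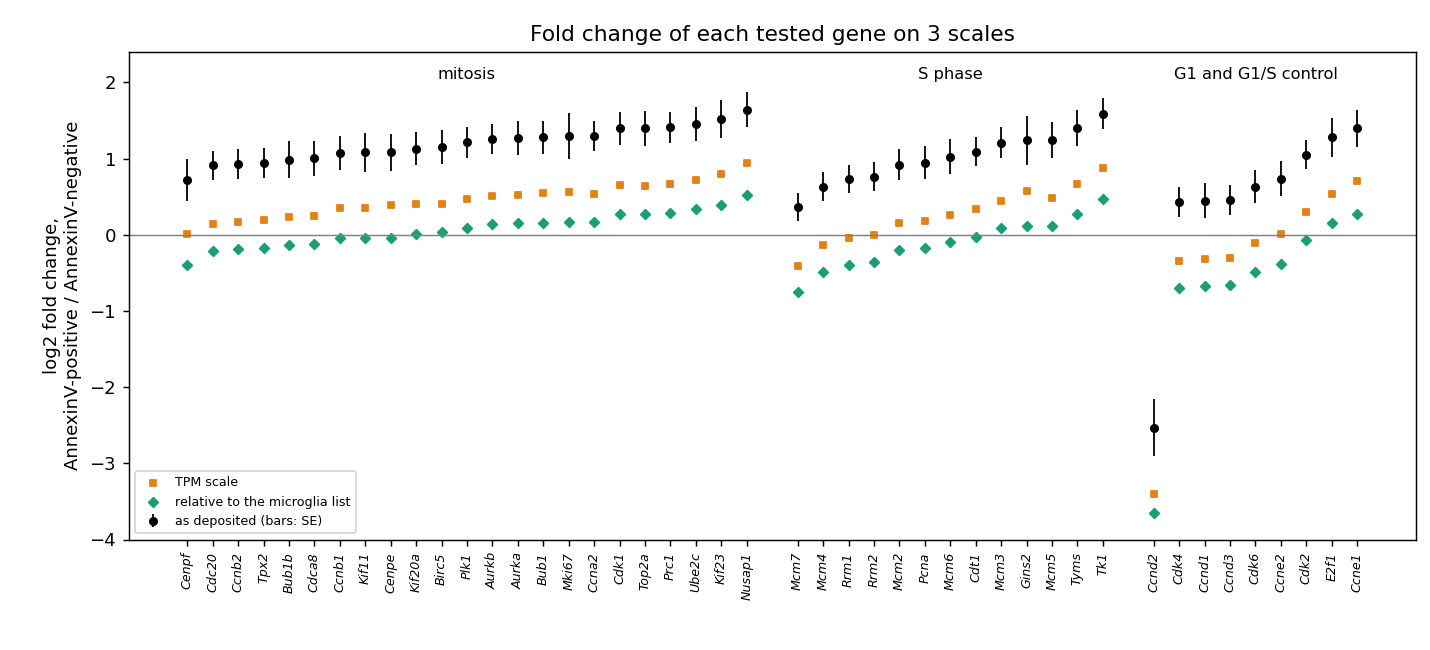
Log2 fold change (AnnexinV-positive over AnnexinV-negative, y axis) of each tested gene, ordered within mitosis, S phase and G1 control. Black points with SE bars are on the deposited scale, orange squares on the TPM scale and green diamonds relative to 14 microglia markers. All genes but Ccnd2 lie above 0 on the deposited scale, and genes of mitosis lie around 0 relative to the microglia markers.

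Genes of mitosis spanned a narrower range than the other groups. On the deposited scale 22 of 23 rose, with a median log2 fold change of 1.21 (range 0.72 to 1.64), while 13 were called on the centred scale, 1 on the TPM scale and 0 relative to the microglia markers. Cenpf, a kinetochore protein, did not pass, at 0.72 (SE 0.27, limma adjusted p 0.0728). In what follows, single differences are log2 fold changes, the first pair of values is the RPKM in AnnexinV-positive replicates 1 and 2 and the second pair that in AnnexinV-negative replicates 1 and 2. Verbs of change refer to the deposited scale, and relative to the microglia markers no gene of mitosis differed past the test. Ccnb1, Cdc20, Cenpe and Tpx2 lost the call when either AnnexinV-positive library was left out. Bub1b, Kif11 and Kif20a lost it without replicate 1 only, and Ccnb2, Birc5 and Cdca8 without replicate 2 only.

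Mki67, the Ki-67 antigen used to stain dividing cells (chromosome 7, 135689784 to 135716361, minus strand, GRCm38, protein coding), was at an RPKM of 5.16 and 4.66 against 1.42 and 2.64. Its mean was 4.91 ± 0.356 against 2.03 ± 0.862 (SD, n = 2 each), a difference of 1.29 (SE 0.299, limma adjusted p 0.0159). AnnexinV-negative replicate 2 was the higher of its pair, and the groups did not overlap. The call was lost after centring, at 0.98 (limma adjusted p 0.0626), and with no filter on low values (limma adjusted p 0.0518). Top2a, the topoisomerase that untangles sister chromatids (chromosome 11, 98992943 to 99024189, minus strand), was at 11.3 and 10.02 against 3.31 and 4.797, with a difference of 1.398 (SE 0.23, limma adjusted p 0.00548).

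The cyclins and the kinase that start mitosis rose together. Ccnb1, a B-type cyclin, was at an RPKM of 2.58 and 2.42 against 1.15 and 1.12, and Ccnb2, the other B-type cyclin, at 10.5 and 12.6 against 5.497 and 6.498. Cdk1, the kinase they activate, was at 5.76 and 7.66 against 2.300 and 2.63. Ccna2, the A-type cyclin of S phase and early mitosis, was at 8.89 and 8.54 against 3.11 and 3.91. Their log2 fold changes were 1.07, 0.93, 1.397 and 1.295, so the cyclin B genes differed less than Cdk1 in size, a difference that was not tested. Ccnb2 was the most abundant gene of mitosis per length in every library but AnnexinV-positive replicate 1, where Top2a was higher.

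Mitotic kinases also rose. Aurka, the Aurora kinase of the spindle poles, was at an RPKM of 5.92 and 6.54 against 2.14 and 2.96. Aurkb, the Aurora kinase of the chromosomal passenger complex, was at 6.07 and 7.14 against 2.504 and 2.89. Plk1, the Polo kinase, was at 5.73 and 6.08 against 2.200 and 2.82. All 3 lay close together, with log2 fold changes of 1.27, 1.26 and 1.21. Birc5 (survivin) and Cdca8 (borealin) are the partners of Aurkb in the passenger complex. Birc5 was at 4.67 and 6.37 against 2.37 and 2.42 and Cdca8 at 6.17 and 8.91 against 3.798 and 3.49, and AnnexinV-positive replicate 2 was the higher of its pair for both.

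Genes of the spindle checkpoint and of the machinery that ends mitosis followed. Bub1, a checkpoint kinase, was at an RPKM of 4.404 and 3.81 against 1.45 and 1.83, and Bub1b, which encodes BubR1, at 5.63 and 4.79 against 2.13 and 3.100. Cdc20, the activator of the anaphase-promoting complex that these proteins hold back, was at 8.702 and 8.82 against 5.03 and 4.24. Ube2c, the ubiquitin-conjugating enzyme of that complex, was at 5.92 and 7.82 against 2.63 and 2.21. Cdc20, with a difference of 0.91, was near the bottom of the group, and Ube2c, at 1.46, near its top, and both promoters shown above hold a CHR match and CCAAT boxes. Cenpe, a kinetochore motor, was at 1.77 and 1.83 against 0.766 and 0.825, and Cenpf at 1.28 and 1.36 against 0.657 and 0.875; these were the least abundant genes of mitosis in the AnnexinV-positive libraries.

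Motors and spindle proteins ranged from the top of the group to near its bottom. Nusap1, a spindle-associated protein (chromosome 2, 119618298 to 119651244, plus strand), was at an RPKM of 3.63 and 3.398 against 0.937 and 1.19, a difference of 1.64 (SE 0.23, limma adjusted p 0.00332). It was the gene of mitosis called on the TPM scale as well. Kif23, a kinesin of the central spindle, was at 4.36 and 4.07 against 1.14 and 1.73, and Prc1, which bundles microtubules there, at 6.73 and 5.97 against 2.12 and 2.53, changes of 1.52 and 1.41. Kif11, the kinesin that separates the spindle poles, was at 4.22 and 3.82 against 1.47 and 2.31, Kif20a at 3.08 and 2.75 against 1.23 and 1.32 and Tpx2, an activator of Aurka, at 5.05 and 5.04 against 2.37 and 2.79, changes of 1.08, 1.13 and 0.94, below the median of the group. For Mki67, Kif11 and Kif23 AnnexinV-negative replicate 2 exceeded replicate 1 by over 1.5 times, and across the group it was higher in 19 of 23 genes, as it was for 12 of 14 microglia markers.

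**Figure D2:**
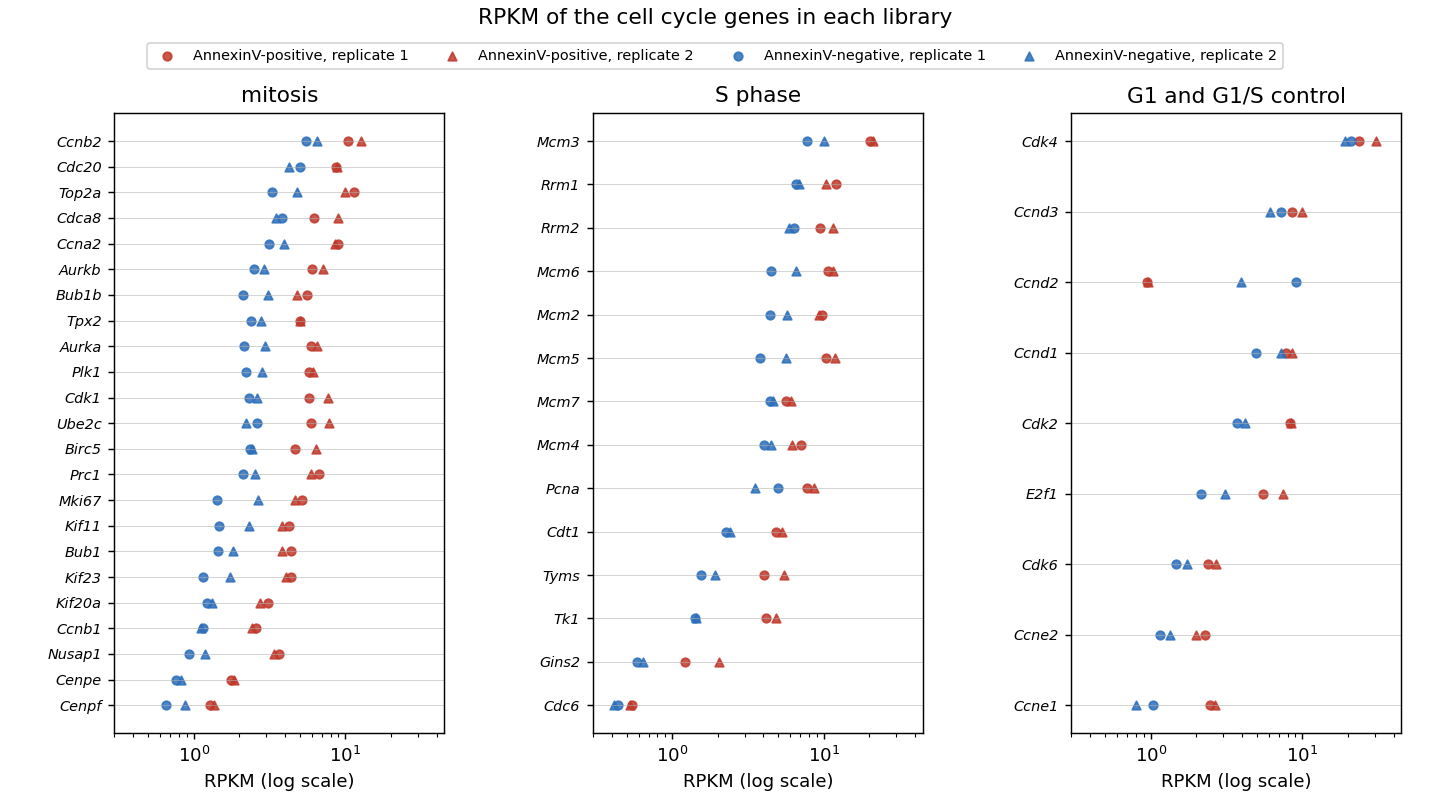
RPKM (x axis, log scale) of all 46 genes in each of the 4 libraries, by group. Red marks AnnexinV-positive and blue AnnexinV-negative, circles replicate 1 and triangles replicate 2. The red points lie to the right of the blue points for every gene except Ccnd2.

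S phase genes also rose on the deposited scale. Of 14, 13 were tested and 12 rose, with a median log2 fold change of 1.02 (range 0.36 to 1.59), while 5 were higher on the centred scale, 1 on the TPM scale and 0 relative to the microglia markers, where Mcm7 was lower. Without AnnexinV-positive replicate 2, 5 of the 12 were called, the others being Rrm1, Rrm2, Mcm2, Mcm4, Mcm6, Pcna and Gins2. Without AnnexinV-positive replicate 1, Rrm1, Rrm2, Mcm2 and Mcm4 lost the call. Cdc6, a loader of the Mcm helicase, stayed under an RPKM of 1 in every library (0.543 and 0.525 against 0.439 and 0.414) and was not tested. Gins2, a subunit of the replicative helicase complex, was next in level, at 1.22 and 2.04 against 0.583 and 0.643, and 67.3% of its exon bases are shared with the opposite-strand gene Gse1, so its reads are uncertain.

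The 6 subunits of the Mcm2-7 helicase, which unwinds DNA at the fork as a single ring, did not move equally. Mcm3 (chromosome 1, 20802968 to 20820312, minus strand) was the most abundant, at an RPKM of 20.1 and 21.1 against 7.75 and 10.1, with a difference of 1.21 (SE 0.198, limma adjusted p 0.00539). Mcm5 was at 10.3 and 11.9 against 3.82 and 5.63 and Mcm6 at 10.7 and 11.6 against 4.46 and 6.56, changes of 1.24 and 1.02. Their promoters are the ones shown above with paired E2F matches. Mcm2 was at 9.796 and 9.32 against 4.403 and 5.69 and Mcm4 at 7.11 and 6.18 against 4.02 and 4.47, changes of 0.92 and 0.63. Mcm7, at 5.61 and 6.05 against 4.396 and 4.61, did not pass, with 0.36 (SE 0.18, limma adjusted p 0.146), and 12.6% of its exon bases are shared with Ap4m1, Cops6 and the microRNA genes Mir93 and Mir25. Relative to the microglia markers Mcm7 was lower, at -0.76 (limma adjusted p 0.0179). Mcm4 was not called when AnnexinV-positive replicate 1 or 2 or AnnexinV-negative replicate 1 was left out.

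The enzymes that make deoxynucleotides split in size. Tk1, thymidine kinase (chromosome 11, 117815526 to 117826092, minus strand), was at an RPKM of 4.14 and 4.85 against 1.42 and 1.43, the largest S phase change, at 1.59 (SE 0.21, limma adjusted p 0.00284), and it was also called on the TPM scale. Tyms, thymidylate synthase, was at 4.01 and 5.49 against 1.54 and 1.91, a change of 1.401. The subunits of ribonucleotide reductase differed less: Rrm1 was at 12.1 and 10.3 against 6.57 and 6.82 and Rrm2 at 9.43 and 11.5 against 6.33 and 5.86, changes of 0.73 and 0.76, and both turned to -0.042 and -0.0065 on the TPM scale. Both lost the call when either AnnexinV-positive library was left out. Pcna, the sliding clamp of the polymerases, was at 7.800 and 8.56 against 4.95 and 3.54, and Cdt1, the licensing factor that works with Cdc6, at 4.86 and 5.302 against 2.26 and 2.404, changes of 0.95 and 1.09.

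S phase and mitosis were compared by the ratio of their summed RPKM within each library, which no scaling of a library can change. The 23 genes of mitosis had sums of 128 and 134 RPKM with annexin V and 51.7 and 61.1 RPKM without it. The 14 S phase genes summed to 108 and 115 against 52.9 and 60.1. The ratio of S phase to mitosis was 0.845 and 0.853 in AnnexinV-positive and 1.02 and 0.983 in AnnexinV-negative libraries, so the groups did not overlap and S phase RNA was the lower relative to mitotic RNA in AnnexinV-positive cells. The median log2 fold change of S phase minus that of mitosis was -0.19, where the difference between the phases varied by 0.11 (SD) among libraries of a group. Without AnnexinV-negative replicate 1 it was -0.12, about the size of that SD. Mcm7, Mcm4, Rrm1 and Rrm2 were the S phase genes below the lowest-ranked changes of mitosis or close to them (Cenpf, 0.72). No test was made of the ratio, since the genes were chosen with earlier results known and 2 libraries against 2 cannot give an exact permutation p below 0.333 (two-sided).

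Microglia marker RNA moved with the cell cycle genes. All 14 microglia markers rose on the deposited scale, with a median log2 fold change of 1.196 (range 0.85 to 1.33), with 13 called when centred and 0 as TPM, and their summed RPKM was 5609 and 5577 in AnnexinV-positive against 2182 and 2678 in AnnexinV-negative libraries. Per 1000 RPKM of these markers, the genes of mitosis summed to 22.7 and 24.1 in AnnexinV-positive and 23.7 and 22.8 in AnnexinV-negative libraries, so the groups overlapped. S phase genes summed to 19.2 and 20.6 against 24.3 and 22.4, without overlap and lower in AnnexinV-positive cells. Relative to the markers, the median log2 fold change was 0.091 for mitosis, with 14 genes above and 9 below 0, and -0.099 for S phase, with 5 above and 8 below 0. On that scale the median over all genes tested was -0.68, and 49.4% of them were called lower. The medians of both phases thus lay above that of all genes tested. In bulk samples, fewer cells of a type and less RNA per cell cannot be told apart.

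**Figure D3:**
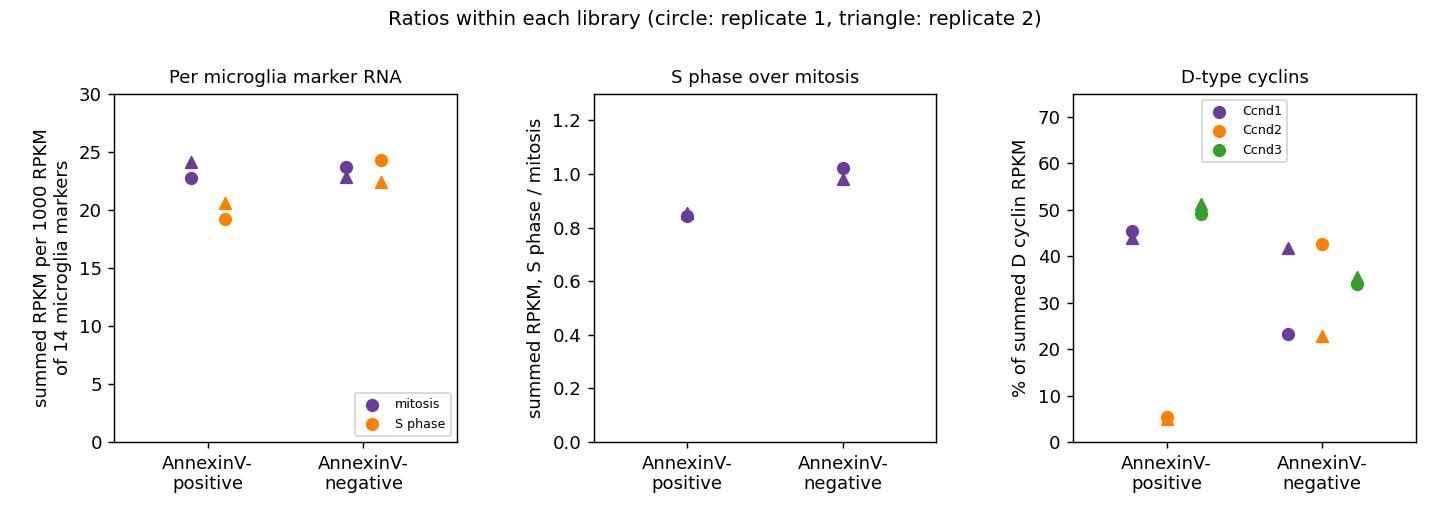
Ratios within each library, by group (circle replicate 1, triangle replicate 2). Left, summed RPKM of mitosis and S phase genes per 1000 RPKM of 14 microglia markers; middle, summed RPKM of S phase over mitosis (0.845 and 0.853 against 1.02 and 0.983); right, share of each D-type cyclin in their sum, with Ccnd2 at 5.47% and 4.92% against 42.6% and 22.8%.

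Most markers of the other cell types that the tissue holds went the other way. Of the tested markers, 15 of 15 of mature oligodendrocytes, 7 of 8 of oligodendrocyte precursors, 9 of 11 of astrocytes, 6 of 8 of endothelial cells and 4 of 6 of mural cells fell on the deposited scale, with 0 higher in each list and negative medians on the other 3 scales. Many entered the test only through the AnnexinV-negative libraries, so the filter favoured this direction. Among them were Mog, Mobp, Ermn, Opalin, Gjb1, Sox10, Neu4, Pecam1, Esam, Tek, Pdgfrb and Rgs5. With a minimum of 0.1 RPKM, 15, 10, 7, 7 and 4 markers in the same order were lower, and 0 higher. Oligodendrocyte precursor markers summed to an RPKM of 20.7 and 18.05 in AnnexinV-positive and 163 and 130 in AnnexinV-negative libraries, and their list includes Olig1, Olig2 and Sox10, which all stages of the lineage express. Summed RPKM was 35.2 and 51.8 against 108 and 77.7 for astrocyte markers, 8.69 and 12.6 against 43.2 and 45.05 for endothelial markers, and 22.9 and 18.1 against 71.3 and 65.3 for mural markers. Pdgfra, the defining precursor receptor, was at 0.251 and 0.138 against 0.864 and 1.55. Cspg4, which is on both the precursor and the mural list, did not fall. It was at 10.1 and 12.03 against 5.06 and 11.1, with overlap, and was not called, at 0.55 (limma adjusted p 0.237). Its values enter both sums. Of 9 T or NK cell markers 7 stayed under an RPKM of 1 in every library. Of the 2 that were tested 1 fell, Gzmb, which passed the filter only through the AnnexinV-negative libraries. Of 8 neutrophil markers 4 stayed under that level, and of the 3 tested Csf3r rose and the other 2 fell, with Camp listed at 0 in both AnnexinV-positive libraries. The 2 that fell, S100a8 and S100a9, also passed the filter only through the AnnexinV-negative libraries. The part of these cell types in the cell cycle values was not tested.

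**Figure D4:**
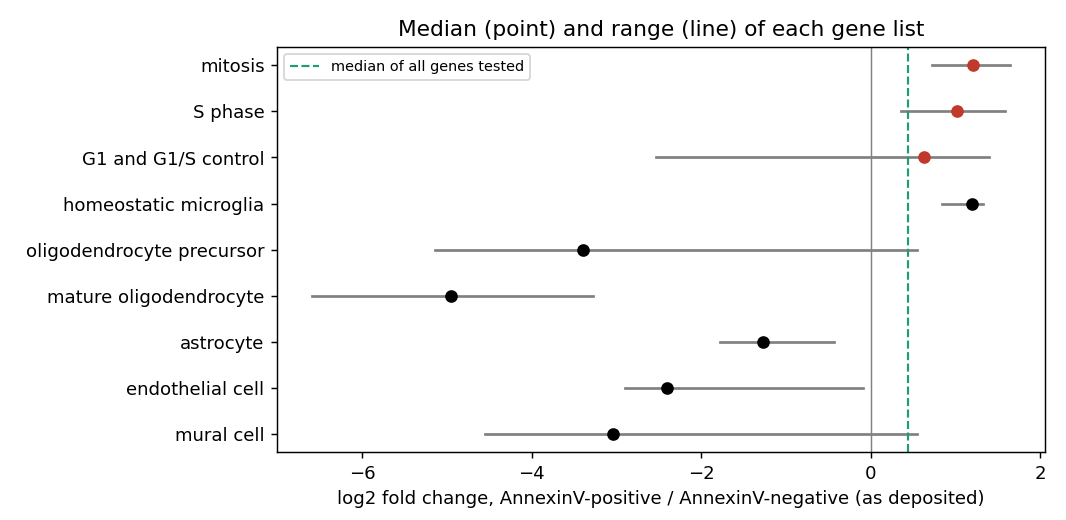
Median (point) and range (line) of the log2 fold change of the tested genes of each list on the deposited scale, with cell cycle groups in red, cell type markers in black and the median of all genes tested (0.45) dashed. Mitosis (1.21) and S phase (1.02) lie beside the homeostatic microglia list (1.196), and the medians of the lists of other cell types lie below 0.

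Genes of G1 were the group that divided. Of 9 tested, 4 rose (Ccne1, Ccne2, Cdk2 and E2f1), Ccnd2 fell and 4 did not pass on the deposited scale, with a median log2 fold change of 0.63 that became 0.32 when centred and -0.11 as TPM. With centring 3 were higher and as TPM 0, with Ccnd2 lower on both. Relative to the microglia markers the median was -0.49 and 4 were lower, beside a median of -0.68 and 49.4% lower over all genes tested. The background was 30.8% higher and 9.26% lower on the deposited scale. It was 10.4% and 10.8% when centred, and 1.03% and 19.1% as TPM.

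The D-type cyclins, which link growth factor signals to the cycle, differed from each other. Ccnd2 (chromosome 6, 127125162 to 127152193, minus strand) was at an RPKM of 0.945 and 0.961 against 9.05 and 3.94, a mean of 0.953 ± 0.0113 against 6.496 ± 3.62 (SD, n = 2 each). Both AnnexinV-positive libraries were far below the lower AnnexinV-negative library, and the AnnexinV-negative pair itself differed by over 2-fold. Ccnd2 passed the filter through the AnnexinV-negative libraries alone. Its log2 fold change was -2.53 (SE 0.37, limma adjusted p 0.00403), and it was called lower in all 15 alternative fits (-3.65 to -1.85, adjusted p 7.73e-05 to 0.0223). Ccnd1 was at 7.85 and 8.58 against 4.96 and 7.21 and Ccnd3 at 8.49 and 9.99 against 7.23 and 6.13. Neither passed, at 0.45 (SE 0.23, limma adjusted p 0.151) and 0.46 (SE 0.196, limma adjusted p 0.0979).

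As a share of the summed RPKM of the 3 D-type cyclins, Ccnd2 made up 5.47% and 4.92% in AnnexinV-positive and 42.6% and 22.8% in AnnexinV-negative libraries. Ccnd3 made up 49.1% and 51.2% against 34.0% and 35.5%, and Ccnd1 45.4% and 43.9% against 23.3% and 41.7%. AnnexinV-positive cells thus held Ccnd1 and Ccnd3 RNA at like levels with little Ccnd2. The summed RPKM of all 3 was 17.3 and 19.5 against 21.2 and 17.3, so the groups overlapped. The AnnexinV-negative library with more Ccnd2, replicate 1, also had the higher sum of mature oligodendrocyte markers (986 against 540), whose part in the Ccnd2 result was not tested. Antisense genes share 7.87% of the Ccnd2 exon bases, and another gene shares 23.4% of those of Ccnd1.

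Among the kinases of G1, Cdk2 rose and the others did not pass. Cdk4, a partner of the D-type cyclins, was the most abundant of the 46 genes, at an RPKM of 23.8 and 30.5 against 20.98 and 19.03, and did not pass, at 0.43 (SE 0.197, limma adjusted p 0.1201). Cdk6, its relative, was at 2.38 and 2.68 against 1.47 and 1.73, with 0.63 (SE 0.22, limma adjusted p 0.0566). Cdk2, the partner of E-type cyclins, was at 8.23 and 8.38 against 3.698 and 4.22 and rose by 1.05 (SE 0.19, limma adjusted p 0.00652). The ratio of Cdk4 to Cdk2 was 2.89 and 3.64 in AnnexinV-positive and 5.67 and 4.51 in AnnexinV-negative libraries, without overlap. It was not tested, since 2 libraries against 2 cannot give an exact permutation p below 0.333 (two-sided).

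The E-type cyclins and E2f1 rose on the deposited scale. Ccne1 was at an RPKM of 2.46 and 2.64 against 1.03 and 0.795, a difference of 1.397, and Ccne2 at 2.28 and 2.004 against 1.14 and 1.35, a change of 0.74 whose call was lost with the replicate block and without either AnnexinV-positive library or AnnexinV-negative replicate 1. E2f1, the transcription factor released at the end of G1, was at 5.53 and 7.43 against 2.15 and 3.095, a change of 1.28. Summed D-type over summed E-type cyclins came to 3.64 and 4.20 in AnnexinV-positive and 9.76 and 8.07 in AnnexinV-negative libraries, without overlap. That ratio was not tested either, for the same reason as the ratio of Cdk4 to Cdk2. Relative to the microglia markers Ccnd1, Ccnd3 and Cdk4 were lower, at -0.67, -0.66 and -0.69 (limma adjusted p 0.0442, 0.0436 and 0.0399), close to the median of -0.68 over all genes tested on that scale, and Ccnd2 was at -3.65.

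Further lists of the pathway were counted in the same way. Of 37 tested genes of a further list for mitosis 34 rose on the deposited scale, with a median log2 fold change of 1.02, while 13 were called when centred and 1 as TPM, and relative to the microglia markers 0 were higher and 2 lower. Their 3 smallest p-values belonged to Pbk, a mitotic kinase (1.45), Ndc80, a kinetochore protein (1.46), and Incenp, the scaffold of the passenger complex (1.497). Of 32 further replication genes 16 rose, with a median of 0.70, while 4 were called after centring, with 1 higher and 1 lower as TPM and 0 higher and 11 lower relative to the microglia markers. Asf1b, a histone chaperone (1.596), Lig1, the ligase that joins Okazaki fragments (1.31), and Gins1 (1.29) led that list. Over all genes tested, 30.8% rose on the deposited scale and 10.4% were higher after centring. As TPM 1.03% were higher and 19.1% lower, and relative to the microglia markers 0.201% were higher and 49.4% lower. Ttk, Sgo1, Kif4, Kif15 and Cdca2 of mitosis and Mcm10 and Fen1 of replication passed the filter only through the AnnexinV-positive libraries. For these genes the filter favoured a rise. With a minimum of 0.1 RPKM, 30 of the further genes of mitosis and 16 of those of replication were higher.

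Of 16 genes of the retinoblastoma, E2F and DREAM group 5 rose on the deposited scale, with a median log2 fold change of 0.50, 1 was higher on the centred scale, 3 were lower on the TPM scale and 8 relative to the microglia markers. The retinoblastoma relative Rbl1 (1.33), the mitotic transcription factor Foxm1 (1.08) and E2f8, a repressing E2F (1.12), had the smallest p-values. E2f8 passed the filter only through the AnnexinV-positive libraries, where it was higher. Of 9 checkpoint and entry genes, with a median of 0.61, 3 rose: Pkmyt1 (1.44) and Chek2 (0.82), which restrain the cycle, and the phosphatase Cdc25b (0.94), which promotes entry into mitosis. The shares that rose in both lists were near the background of 30.8%. After centring Pkmyt1 alone of the 3 was called, and Cdc25b also lost the call with a minimum of 0.1 RPKM. On the TPM scale 0 of the 9 checkpoint and entry genes were higher and 1 lower, and relative to the microglia markers 3 were lower. Over all genes tested, 19.1% were lower as TPM and 49.4% relative to the microglia markers.

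Of 7 tested inhibitors of cyclin-dependent kinases, Cdkn2c, which blocks Cdk4 and Cdk6, was at 7.37 and 7.93 against 3.13 and 3.32, a difference of 1.22 (SE 0.18, limma adjusted p 0.00424). Cdkn3, a phosphatase of Cdk2 and Cdk1, was at 3.43 and 4.84 against 1.93 and 1.28, a change of 1.32. Cdkn1b, the inhibitor p27, was at 1.17 and 1.01 against 2.04 and 1.703 and fell by 0.73 (SE 0.24, limma adjusted p 0.0493), a call that was lost with the replicate block and with a minimum of 0.1 RPKM. Cdkn1a, the inhibitor p21, named after its values were seen, was far above every other gene of these lists, at 92.7 and 120 against 113 and 82.3, and its groups overlapped. Of these 7, 2 were higher and 1 lower on the deposited scale, against a background of 30.8% and 9.26%. Their median log2 fold change was 0.44, beside 0.45 over all genes tested. After centring 2 were higher and 1 lower (background 10.4% and 10.8%), and as TPM 0 and 1 (1.03% and 19.1%). Relative to the microglia markers 0 were higher and 3 lower, against 0.201% and 49.4%.

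Since the library kit does not keep strand, reads of genes on opposite strands cannot be told apart. In GENCODE vM21, 19 of the 46 genes share exon bases with another gene, most of all Gins2, Kif20a (29.3%), Ccnd1, Ube2c (22.8%) and Cdk4 (19.7%). Of the 26 tested genes that share none, 25 rose and 0 fell on the deposited scale, with a median log2 fold change of 1.09. The background was 30.8% higher and 9.26% lower. After centring 12 of them were higher, with 0 as TPM and 0 relative to the microglia markers. The D-type cyclins, including Ccnd2, and Cdk2, Cdk4 and Cdk6 share exon bases and are not among these genes.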

How the data were processed

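Reads were aligned with GSNAP to mm10, per the submitters' processing notes; the program that counted reads, its annotation and any read filter are not stated there. Each deposited file holds 1 value per Ensembl gene and library with no unit in its header. The deposited values were read as RPKM, with a scaling between libraries that the files do not describe: dividing by exon length (GENCODE vM21, GRCm38, the assembly of mm10) turned 79.6% to 83.6% of the values below 100 reads into whole reads (tolerance 0.01), but only 57.2% to 60.2% of all values, too few for a count test. The planned test for RPKM was used: limma 3.58.1 (R 4.3.3, trended prior variance, no covariate) on log2(RPKM + 0.1) for the 10927 genes that reached 1 RPKM in 2 libraries, and Benjamini-Hochberg adjustment over all genes tested with a threshold of 0.05. Alternatives (pseudocount, filter, scale, replicate block, trend, each library left out) are in the closing section. Symbols matched 52403 of 52636 genes. The 46 members and all lists were chosen with earlier results of these data known. The naming rule gave every member by role, and the 3 genes with the smallest p in each further list. The fit was also run on simulated data with independent noise for each gene and no shift of whole libraries. That run therefore cannot bear on the choice of scale.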

Additional observations from a re-analysis of the deposited data

How the results depend on the processing

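The scale changed the results most. With each library centred on its median over the genes tested, 1133 genes were higher, and 21 members, 13 of mitosis and 5 of S phase, with medians of 0.90 (mitosis), 0.71 (S phase) and 0.32 (G1). On the TPM scale 113 genes were higher and 2091 lower, with 2 members higher (1 of mitosis, 1 of S phase, 0 of G1) and medians of 0.47, 0.26 and -0.11 in the same order; Ccnd1 (-0.32), Ccnd3 (-0.31), Cdk4 (-0.35), Cdk6 (-0.11), Rrm1 (-0.042), Rrm2 (-0.0065), Mcm4 (-0.13) and Mcm7 (-0.40) turned direction. Centred on the microglia list 22 genes were higher and 5393 lower, with 0 members higher (0 of mitosis, 0 of S phase, 0 of G1), 5 lower (1 of S phase, 4 of G1) and medians of 0.091, -0.099 and -0.49. There Ccnb1 (-0.048), Ccnb2 (-0.19), Bub1b (-0.13), Cdc20 (-0.21), Cenpe (-0.037), Cenpf (-0.40), Kif11 (-0.038), Tpx2 (-0.18), Cdca8 (-0.12), Ccne2 (-0.38), Ccnd1 (-0.67), Ccnd3 (-0.66), Cdk2 (-0.067), Cdk4 (-0.69), Cdk6 (-0.49), Rrm1 (-0.39), Rrm2 (-0.36), Mcm2 (-0.20), Mcm4 (-0.49), Mcm6 (-0.099), Mcm7 (-0.76), Pcna (-0.17) and Cdt1 (-0.032) turned direction. These shifts follow from the construction of the scales. A pseudocount of 1 gave medians of 0.95 (mitosis) and 0.82 (S phase). A minimum of 0.1 RPKM gave 3913 genes lower, and no filter 1865 higher and 2489 lower, with more genes tested. Leaving out each library in turn gave 1297 to 3356 genes higher (1297 without AnnexinV-positive replicate 2 and 1749 without AnnexinV-positive replicate 1), 23 to 40 members higher, 5 to 12 S phase members higher an S phase median of 0.95 to 1.13, and a difference between the medians of S phase and mitosis of -0.23 to -0.12. With Ccne1, Ccne2 and E2f1 counted as S phase, 1 gene of G1 rose. Chosen after seeing the data, the members that share no exon base gave 25 higher and 0 lower, 13 higher for mitosis, with fewer genes counted. For G1 they gave 2 higher and 0 lower and a median of 1.34. Ccne1 and E2f1 were the only G1 genes left there, without Ccnd2, the other D-type cyclins and the kinases. The labels do not say that replicate numbers pair the libraries, and same-numbered libraries deviated in opposite directions (r = -0.215 across 10927 genes, which are not independent). With the replicate block 34 members were higher and 1 lower (Ccne2, Rrm1, Rrm2 and Mcm4 lost the call), and 2443 genes higher and 957 lower. With the crossed replicate block, added after seeing the data, 41 members were higher and 1 lower, 7 of G1 higher, and 4891 genes higher and 1136 lower. Depth limits little here, since each member had at least about 205 reads per library.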
